A study of Homo sapiens with 3 samples.

Results

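The genes described here encode inhibitors that are themselves switched on by growth factor and stress signaling. They are the dual specificity phosphatases DUSP1, DUSP4, DUSP5, DUSP6 and DUSP10, the Sprouty proteins SPRY1, SPRY2 and SPRY4, and the Sprouty-related proteins SPRED1 and SPRED2. All probes that the platform annotation gives these symbols were taken, which are 17 of 47319 probes and 10 of 20043 named genes. Expression was measured in HCC-LM3 cells, an adherent epithelial line from human hepatocellular carcinoma (HCC), on Illumina HumanHT-12 v4 Expression BeadChip arrays. Culture with compound lasted 48 h, and both GANT61 and cyclopamine were used at 20 μM, with DMSO alone as the vehicle control. GANT61 inhibits the Gli transcription factors at the end of the Hedgehog (Hh) pathway, and cyclopamine antagonizes SMO, its signal transducer at the membrane. Each condition has 1 array, so the differences carry no p-value and nothing here measures the spread between cultures. The values are signal intensities, normalized between arrays by the authors before deposit, and a log2 difference is that of these intensities.

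Mitogen-activated protein (MAP) kinases relay signals from receptors at the cell surface to the nucleus, and the ERK, JNK and p38 groups are their main branches. MAP kinase phosphatases of the DUSP family remove the phosphates that switch these kinases on, and they differ in where they sit in the cell and in which branch they prefer. Sprouty and SPRED proteins act further upstream, between receptor tyrosine kinases and RAF. Many of the genes are transcribed in response to the pathway that their products restrain, so that their mRNA is often read as a trace of pathway activity. In liver cancer, signaling through RAS and ERK is frequently raised, and reduced Sprouty and SPRED levels have been described in such tumors.

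A probe was taken as above background where it exceeded an intensity of 63.75, which is 1.5 times the most common intensity of an array. By this limit 10 of the 17 probes were above background on at least 1 array and 8 on all 3. They represent 9 of the 10 genes, all but DUSP4. Each gene is given by its brightest probe unless stated. Over all genes, 10441 of 20043 were above background on at least 1 array. The treated arrays lay closer to each other than to the DMSO array. Over these genes the log2 differences had an SD of 0.78 for GANT61 against DMSO, 0.64 for cyclopamine against DMSO and 0.52 for GANT61 against cyclopamine. Of 12 commonly used reference genes, 9 had a named probe, and their median log2 difference was −0.73 with GANT61 and −0.54 with cyclopamine against DMSO, but −0.072 between the treated arrays. Pairs of probes of the same gene gave an SD of a log2 difference of 0.37 to 0.51 for GANT61 against DMSO, 0.32 to 0.46 for cyclopamine against DMSO and 0.18 to 0.22 for GANT61 against cyclopamine, depending on brightness. This SD compares probes on the same RNA and does not cover cultures. The epithelial markers KRT8, KRT18 and EPCAM were above background and CDH1 and KRT19 were not. Of 9 hepatocyte markers with a named probe, ALB alone was above background, with an intensity of 80.0 with GANT61, 70.4 with cyclopamine and 69.6 with DMSO. KRT8 had 286 with GANT61, 335 with cyclopamine and 1423 with DMSO. Of 5 immune markers CD68, a lysosomal glycoprotein, was above background, with 1032 with GANT61, 509 with cyclopamine and 238 with DMSO, while PTPRC, CD3E, CD14 and CD79A were not. The summed intensity of the 5 immune markers was 1224 with GANT61, 709 with cyclopamine and 429 with DMSO. That of 6 fibroblast markers, of which COL1A1 and PDGFRB were above background, was 292 with GANT61, 377 with cyclopamine and 461 with DMSO. None of the 5 endothelial markers was above background. The part of these differences in the results below was not tested, and in cells measured in bulk fewer expressing cells and less RNA per cell cannot be told apart.

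With GANT61, 4 of the 9 genes above background were at least 2-fold higher than with DMSO, namely DUSP1, DUSP5, DUSP6 and SPRY2, and none was 2-fold lower. By the same rule 8.16% of all genes above background were higher and 9.64% were lower with GANT61. With cyclopamine, DUSP1 and SPRY2 were at least 2-fold higher than with DMSO and none of the 9 was lower, where 4.70% of all genes were higher and 6.31% lower. Between the treated arrays DUSP1, DUSP5 and DUSP6 were at least 2-fold higher with GANT61 and none was lower, where 2.31% of all genes were higher and 3.40% lower. The comparisons with DMSO share 1 DMSO array. The comparison of the treated arrays does not use it.

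**Figure D1:**
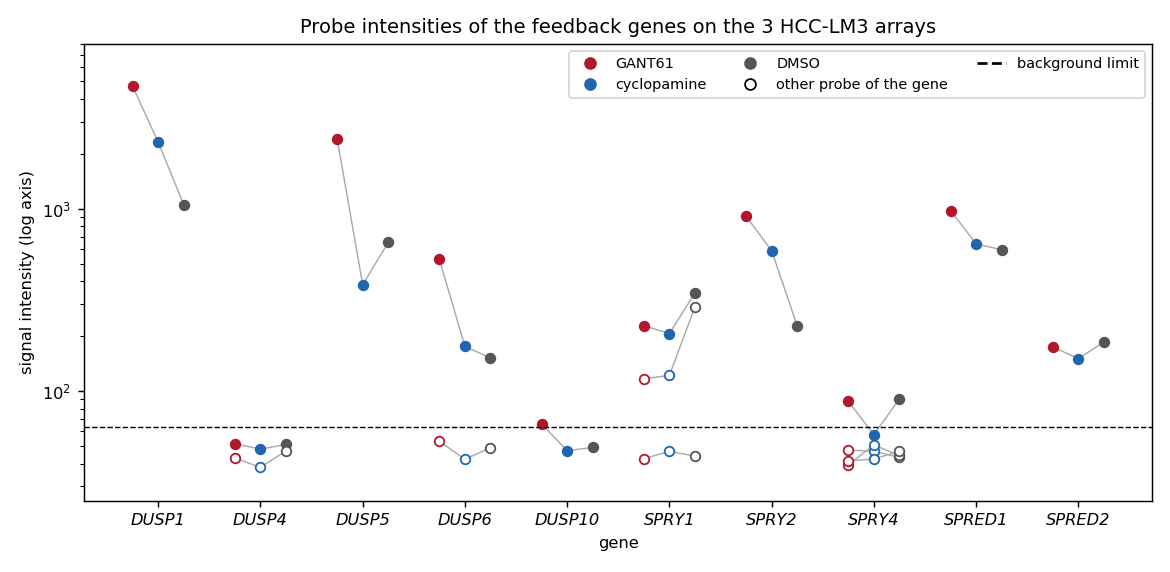
Signal intensity (log axis) of all 17 probes of the 10 genes on the GANT61, cyclopamine and DMSO arrays, 1 array each, with filled points for the brightest probe of a gene and open points for its other probes. The dashed line is the background limit of 63.75, and the points of DUSP1, DUSP5, DUSP6 and SPRY2 are highest with GANT61.

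DUSP1 (also called MKP-1) is a nuclear phosphatase that acts on p38, JNK and ERK and is among the genes transcribed soonest after a stimulus. Its single probe, ILMN_1781285, had an intensity of 4683 with GANT61, 2314 with cyclopamine and 1051 with DMSO. The log2 difference was 2.16 with GANT61 and 1.14 with cyclopamine against DMSO, and 1.02 for GANT61 against cyclopamine. Each of these steps was larger than the SD between probes at that brightness (0.42, 0.37 and 0.21), and the intensity was thus highest with GANT61, intermediate with cyclopamine and lowest with DMSO. Among the 10441 genes above background, DUSP1 ranked 54 from the highest with GANT61 and 299 with cyclopamine.

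DUSP5 is a nuclear phosphatase that is selective for ERK and also holds it in the nucleus. Its probe, ILMN_1656501, had an intensity of 2424 with GANT61, 383 with cyclopamine and 653 with DMSO. Of the 10 genes DUSP5 was the one on which the compounds differed most, at 3.71 times the DMSO intensity with GANT61 and 1.70-fold lower than DMSO with cyclopamine. The log2 differences against DMSO were 1.89 with GANT61 and −0.77 with cyclopamine, with SDs between probes of 0.48 and 0.44. Scaled on the reference genes, they were 2.62 with GANT61 and −0.23 with cyclopamine, the latter within the SD between probes. Between the treated arrays DUSP5 was 6.33-fold higher with GANT61, a log2 difference of 2.66, which ranked 9 among the 10441 genes.

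DUSP6 (MKP-3) is the cytoplasmic phosphatase selective for ERK, and its mRNA is widely used as a readout of ERK activity. The brighter probe, ILMN_2396020, had an intensity of 527 with GANT61, 176 with cyclopamine and 152 with DMSO. The value with GANT61 stood apart, while cyclopamine and DMSO differed by 0.21 on the log2 scale, less than the SD between probes of 0.39. The log2 difference was 1.80 for GANT61 against DMSO and 1.58 for GANT61 against cyclopamine. The other DUSP6 probe, ILMN_1677466, had 53.0 with GANT61, 42.3 with cyclopamine and 48.9 with DMSO and was not above background on any array. With the mean of both probes the log2 differences were 0.96 against DMSO and 0.96 against cyclopamine, which is short of 2-fold. The annotation pairs the probes with different RefSeq transcripts of the gene.

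DUSP10 (MKP-5), which acts on p38 and JNK, and DUSP4 (MKP-2), a nuclear phosphatase of ERK and JNK, were dim. DUSP10 had an intensity of 65.9 with GANT61, 47.1 with cyclopamine and 49.0 with DMSO. It was above background with GANT61 alone, and was there at least 1.03-fold higher than with DMSO or cyclopamine. The brighter DUSP4 probe had 51.4 with GANT61, 48.0 with cyclopamine and 50.9 with DMSO, and the other had 42.9 with GANT61, 38.1 with cyclopamine and 47.0 with DMSO. No level of DUSP4 above background was detectable on these arrays.

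Sprouty proteins are bound to the membrane and interfere with RAS and RAF activation, and SPRY2 also binds the ubiquitin ligase CBL. The probe of SPRY2, ILMN_2089329, had an intensity of 907 with GANT61, 589 with cyclopamine and 228 with DMSO. It was 3.98-fold higher with GANT61 and 2.59-fold higher with cyclopamine than with DMSO, log2 differences of 1.99 and 1.37 with SDs between probes of 0.48 and 0.44. GANT61 exceeded cyclopamine by 0.62 on the log2 scale (SD between probes 0.18). SPRY2 ranked 74 among the 10441 genes with GANT61 and 141 with cyclopamine, the highest place of the 10 genes with cyclopamine.

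SPRY1 was lower with both compounds than with DMSO in the deposited values. The direction of its brightest probe with GANT61 turned when the arrays were scaled on the reference genes. Its brightest probe, ILMN_2329914, had an intensity of 228 with GANT61, 207 with cyclopamine and 345 with DMSO, log2 differences from DMSO of −0.60 and −0.74. These do not reach 2-fold. The second probe, ILMN_1691860, had 117 with GANT61, 122 with cyclopamine and 289 with DMSO, which is 2.48-fold and 2.37-fold lower than with DMSO. The treated arrays differed from each other by 0.14 on the first probe and −0.06 on the second. The third probe was not above background on any array. Scaled on the reference genes, the log2 difference of the brightest probe was 0.14 with GANT61 and −0.20 with cyclopamine.

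SPRY4 was above background by 1 of its 4 probes, ILMN_2086105, and not on every array. This probe had an intensity of 87.9 with GANT61, 57.6 with cyclopamine and 90.5 with DMSO. The values with GANT61 and DMSO differed by −0.04 on the log2 scale. With cyclopamine SPRY4 was not above background, which makes it at least 1.42-fold lower there than with DMSO, and its intensity with GANT61 was at least 1.38-fold above that with cyclopamine.

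SPRED1 and SPRED2 bring neurofibromin, which inactivates RAS, to the membrane. SPRED1 had an intensity of 975 with GANT61, 642 with cyclopamine and 594 with DMSO. Its log2 difference of 0.71 with GANT61 exceeded the SD between probes (0.48) without reaching 2-fold, while that of 0.11 with cyclopamine did not exceed it (0.44). SPRED2 had 174 with GANT61, 151 with cyclopamine and 185 with DMSO. Its log2 differences from DMSO, −0.09 with GANT61 and −0.30 with cyclopamine, were within the SD between probes of 0.43 and 0.39.

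**Figure D2:**
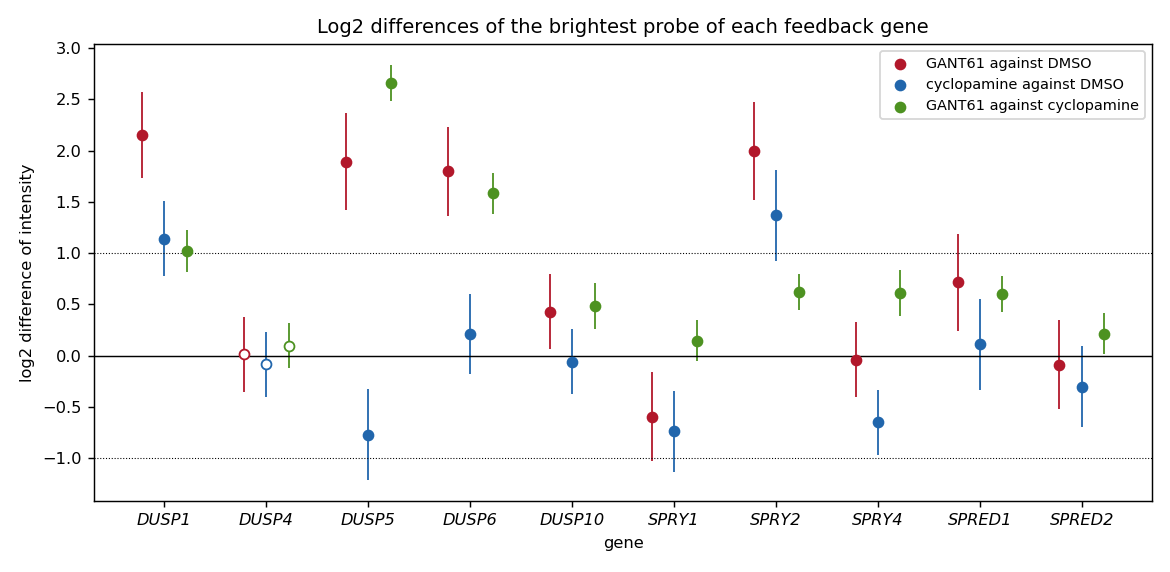
Log2 difference of intensity for the brightest probe of each gene, with 1 point per comparison and bars of 1 SD between probes of a gene at the same brightness, which are not replicate errors. Dotted lines mark 2-fold and open points are DUSP4, not above background on any array. For GANT61 against cyclopamine all 10 points lie above 0, from 0.10 for DUSP4 to 2.66 for DUSP5.

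Over the 9 genes above background the median log2 difference was 0.71 with GANT61 against DMSO, where that of all genes was 0.018. With cyclopamine against DMSO the median was −0.058, beside 0.033 over all genes. For GANT61 against cyclopamine it was 0.61, beside 0.0096. With DUSP4 included these medians were 0.57, −0.072 and 0.61. Over the 9 genes, the median with cyclopamine against DMSO was the value of DUSP10, not above background on either array. That for GANT61 against cyclopamine was the value of SPRY4, not above background with cyclopamine. DUSP10 entered the 9 through the GANT61 array alone, where it is highest. These medians and the counts that follow therefore describe the genes and carry no further weight. All 9 were higher to some extent with GANT61 than with cyclopamine, except SPRY1 where the mean of its probes was taken (−0.02), as were 51.0% of all genes, and 6 of the 9 were higher with GANT61 than with DMSO, as were 50.8% of all genes. Scaled on the reference genes, an alternative that moved the median of all genes to 0.75 with GANT61 and 0.57 with cyclopamine against DMSO, 6 of the 9 exceeded DMSO at least 2-fold with GANT61, DUSP10 and SPRED1 being added. Then 35.9% of all genes were.

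Promoter windows were available for 8 of the 10 genes in a table made from RefSeq (GRCh38.p14), all but DUSP4 and DUSP5. Each window spans 250 bases before to 50 bases after an annotated start, and the 8 genes have 13 windows. Both strands were searched for the cAMP response element (CRE) TGACGTCA and its core TGACG, the AP-1 site TGANTCA, the ETS site CCGGAAGT and its core CCGGAA, the E box CACGTG, the Gli site GACCACCCA and the CArG box. The sequences shown are the 250 bases before the start of the 3 genes with a window that were at least 2-fold higher with GANT61, with capitals for matches. They lie at chr5:172771196-172771445 for DUSP1, chr12:89352502-89352751 for DUSP6 and chr13:80341127-80341376 for the most upstream of 3 SPRY2 starts, all on the minus strand.
DUSP1: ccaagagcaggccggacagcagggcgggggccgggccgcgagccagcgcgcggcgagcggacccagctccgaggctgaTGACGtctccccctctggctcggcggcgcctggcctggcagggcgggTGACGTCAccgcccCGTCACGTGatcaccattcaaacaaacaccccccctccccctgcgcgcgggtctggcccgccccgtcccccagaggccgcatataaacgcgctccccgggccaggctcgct
DUSP6: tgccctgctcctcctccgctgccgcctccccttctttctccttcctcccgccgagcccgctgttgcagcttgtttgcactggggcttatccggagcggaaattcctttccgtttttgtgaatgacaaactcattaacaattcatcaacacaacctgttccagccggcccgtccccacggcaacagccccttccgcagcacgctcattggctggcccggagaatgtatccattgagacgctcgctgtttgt
SPRY2: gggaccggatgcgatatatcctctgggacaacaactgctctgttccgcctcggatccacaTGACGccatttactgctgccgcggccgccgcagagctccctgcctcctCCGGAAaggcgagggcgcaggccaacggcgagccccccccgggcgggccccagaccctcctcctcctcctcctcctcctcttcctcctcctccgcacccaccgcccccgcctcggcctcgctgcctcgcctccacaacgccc

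DUSP1, which among the 10 genes had the largest difference from DMSO with GANT61, held a full CRE at 118 to 125 bases before its start, which 1.85% of 35116 promoters of the table hold. Further CRE cores lay at 168 to 172 bases and at 107 to 111 bases before the start, the last overlapping an E box at 103 to 108 bases. A CRE core is found in 24.6% of promoters and an E box in 7.26%. SPRY2 had a CRE core at 186 to 190 bases and an ETS core at 137 to 142 bases before its most upstream start, and 17.2% of promoters hold an ETS core. The DUSP6 window had no match to any of the motifs. SPRY1 had an ETS core at 62 to 67 bases before its second start, and SPRY4 a CRE core at 64 to 68 bases. SPRED2 held a CRE core at 31 to 35 bases after its first start and AP-1 sites, which 7.71% of promoters hold, in the window of its second start. DUSP10 had a CRE core that ends at its second start, and SPRED1 had no match. None of the 13 windows held the Gli site, found in 0.236% of promoters, or a CArG box, found in 1.29%. These matches describe letters in short windows and are not measured binding.

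**Figure D3:**
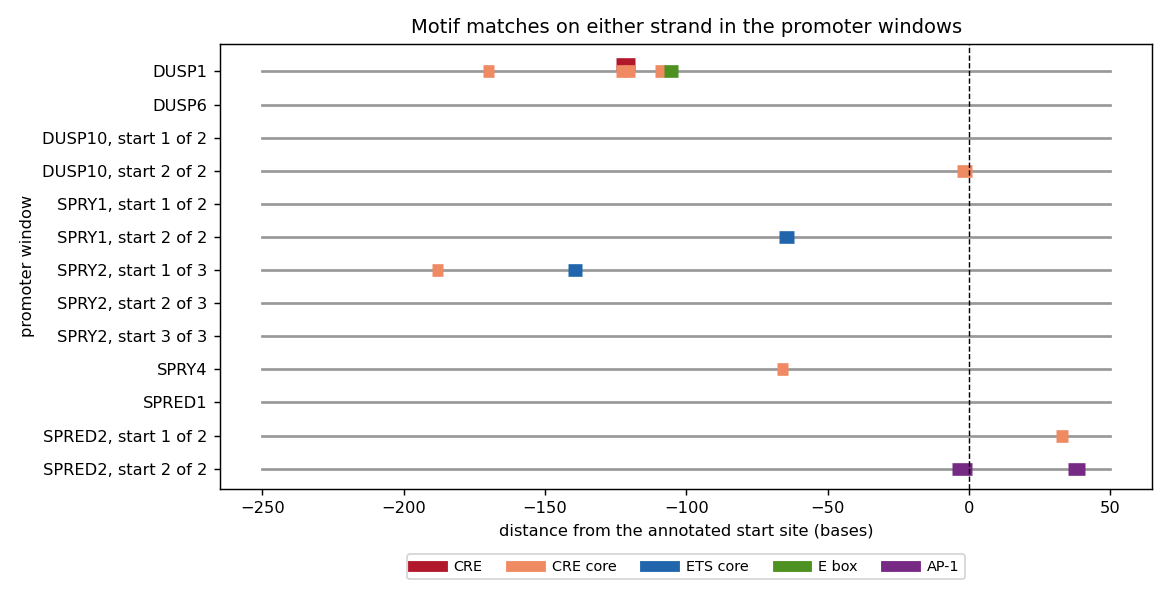
Motif matches on either strand in the 13 promoter windows of 8 genes, plotted by distance in bases from the annotated start site (dashed line). DUSP1 holds the only full CRE, raised above its cores, at 118 to 125 bases before the start, and the DUSP6 window holds no match.

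The remaining MAP kinase phosphatases and Sprouty and SPRED family members held no gene that was 2-fold higher. Of 7 such genes 4 were above background, and of these 2 were at least 2-fold lower with GANT61 and 1 with cyclopamine than with DMSO. DUSP9 (MKP-4), a cytoplasmic phosphatase of ERK, had an intensity of 55.8 with GANT61, 54.3 with cyclopamine and 133 with DMSO, and was at least 2.09-fold lower with each compound. DUSP8, which acts on JNK and p38, had 109 with GANT61, 119 with cyclopamine and 236 with DMSO. DUSP7, SPRY3 and SPRED3 were not above background. Other inhibitors of the pathway differed widely. Of 11 with a named probe 10 were above background, of which 1 was at least 2-fold higher and 2 lower with each compound than with DMSO. PTPRR, a tyrosine phosphatase that acts on ERK and p38, had 481 with GANT61, 427 with cyclopamine and 104 with DMSO by its brighter probe. The other PTPRR probe was not above background on any array. PEBP1, which binds RAF kinases and blocks their action, had 1279 with GANT61, 2172 with cyclopamine and 5773 with DMSO, and PPP2R1A, the scaffold subunit of protein phosphatase 2A, had 383 with GANT61, 371 with cyclopamine and 1779 with DMSO.

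Other target genes of ERK fell into groups of different pattern. Of 12 such genes 10 were above background, 3 exceeded DMSO at least 2-fold with GANT61 and none with cyclopamine, while 6 had a measured intensity at least 2-fold higher on the GANT61 array than on the cyclopamine array. Of all genes, 8.16% and 4.70% exceeded DMSO at least 2-fold with GANT61 and cyclopamine, and 2.31% were higher with GANT61 than with cyclopamine. For FOSL1, 1 of these 6 ERK target genes, the bound against the background limit was just short of 2-fold. MYC, another of the 6, had a log2 difference between the treated arrays of 1.06 by its brightest probe and 0.95 by its second. For cyclopamine against DMSO its probes disagreed, at −0.50 and 0.67. The median log2 difference of the 10 genes was 0.63 with GANT61 and −0.52 with cyclopamine against DMSO, and 1.13 for GANT61 against cyclopamine. Over all genes these medians were 0.018, 0.033 and 0.0096. Those of the reference genes were −0.73, −0.54 and −0.072. With cyclopamine the ERK target genes were thus no lower against DMSO than the reference genes by their medians. EGR1 and IER3 had values ordered as those of DUSP5, high with GANT61 and low with cyclopamine. PHLDA1, which promotes apoptosis in some cells, had an intensity of 1003 with GANT61, 182 with cyclopamine and 209 with DMSO. Its values with cyclopamine and DMSO differed by less than the SD between probes (0.46), and a second probe had 82.9 with GANT61, 66.2 with cyclopamine and 59.1, not above background, with DMSO. EGR1, a zinc finger transcription factor induced early, had log2 differences from DMSO of 2.33 with GANT61 and −0.82 with cyclopamine, and IER3, an early response gene, had 2.40 and −0.64. FOSL1, a subunit of AP-1, had 127 with GANT61, 53.1 with cyclopamine and 77.5 with DMSO, and its intensity with GANT61 was at least 1.99-fold above that with cyclopamine. The ETS factors ETV4 and ETV5, which are often read together with DUSP6 and SPRY4, did not show this order. ETV4 had 103 with GANT61, 94.0 with cyclopamine and 175 with DMSO, ETV5 had 515 with GANT61, 439 with cyclopamine and 565 with DMSO, and ETV1 was not above background.

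The components that carry the signal from receptors to ERK were mixed. Of 17 cascade genes 12 had a named probe and 10 were above background, of which 1 was at least 2-fold higher and 2 lower with GANT61, and 3 higher and 1 lower with cyclopamine, than with DMSO. None differed 2-fold between the treated arrays. PTPN11 (SHP2), a phosphatase that promotes RAS activation, had an intensity of 1904 with GANT61, 1869 with cyclopamine and 709 with DMSO. SHC1, an adaptor of receptor tyrosine kinases, had 646 with GANT61, 490 with cyclopamine and 1636 with DMSO. MAP2K2, a kinase that activates ERK, had 167 with GANT61, 238 with cyclopamine and 433 with DMSO. LAMTOR3, a scaffold of ERK signaling at late endosomes, had 847 with GANT61, 1086 with cyclopamine and 437 with DMSO. The probes of MAPK3, which encodes ERK1, disagreed, at log2 differences from DMSO of 0.85 with GANT61 and 1.12 with cyclopamine for the brighter probe and −1.19 and −0.88 for the other. EGFR, the receptor of epidermal growth factor, had 1963 with GANT61, 1399 with cyclopamine and 1063 with DMSO by its brightest probe. A second EGFR probe, above background on all 3 arrays, had 126 with GANT61, 80.0 with cyclopamine and 114 with DMSO. The probes disagreed on cyclopamine against DMSO, at log2 differences of 0.40 for the brightest and −0.51 for the second. HBEGF, a ligand of EGFR, had 302 with GANT61, 114 with cyclopamine and 245 with DMSO, the same order as DUSP5. However, its log2 difference of 0.30 for GANT61 against DMSO was less than the SD between probes (0.43). In the JNK, p38 and ERK5 branches, 1 of 10 genes above background was at least 2-fold higher and none lower with GANT61, and 1 was higher and 1 lower with cyclopamine, than with DMSO. The median log2 difference of these 10 genes was −0.60 with GANT61 and −0.44 with cyclopamine. MAP2K3, an activator of p38, was the higher gene with both compounds, with 1388 with GANT61, 675 with cyclopamine and 280 with DMSO. These values are those of the brightest of 6 MAP2K3 probes. The second had 65.3 with GANT61, 44.5 with cyclopamine and 49.1 with DMSO, above background with GANT61 alone. The remaining MAP2K3 probes were not above background on any array. MAPK12, which encodes a p38 kinase, was the lower one with cyclopamine, with 81.3 with GANT61, 68.4 with cyclopamine and 159 with DMSO.

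**Figure D4:**
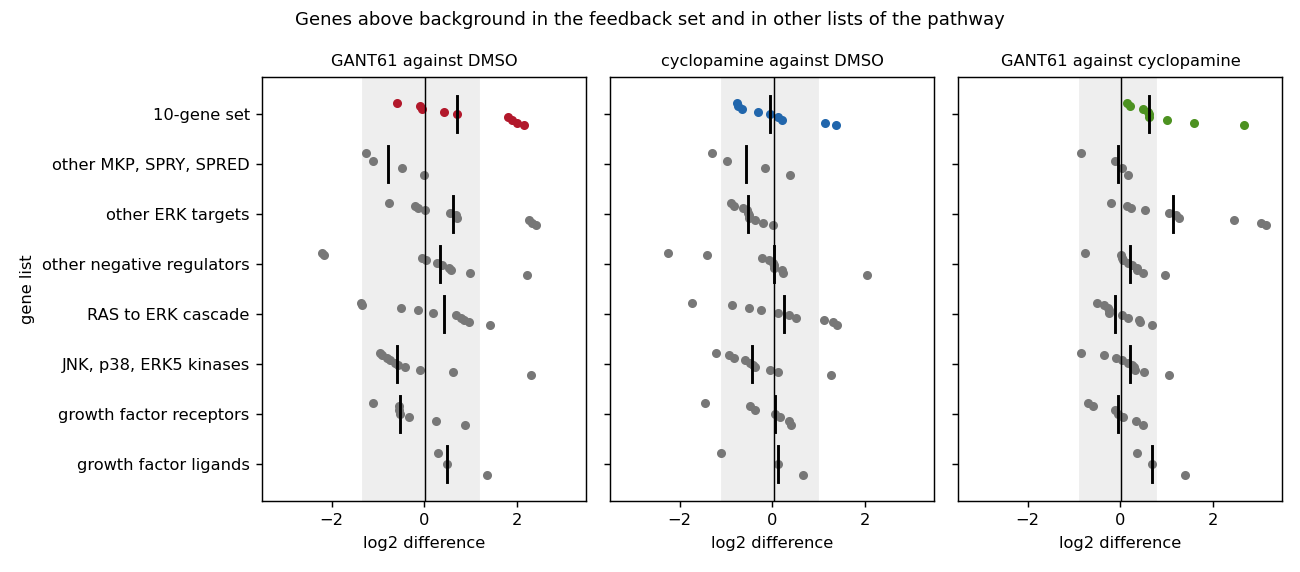
Log2 differences of the genes above background in the 10-gene set (coloured) and in 7 other lists of the pathway (gray), by comparison, with a black bar at each list's median. The shaded band spans the 5th to the 95th percentile of all 10441 genes and the vertical line is their median. In the set, 4 genes lie right of 2-fold with GANT61 and 2 with cyclopamine.

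The genes above background on at least 1 array whose pair of log2 differences from DMSO lay nearest to that of DUSP6 were BCAR3, PTGER4, ARNT2, IKBIP and JUN, at Euclidean distances of 0.08 to 0.15. JUN, a subunit of AP-1, had an intensity of 595 with GANT61, 177 with cyclopamine and 170.1 with DMSO, and BCAR3, an adaptor protein, had 2495 with GANT61, 775 with cyclopamine and 686 with DMSO. ARNT2 was not above background with cyclopamine (49.4) or DMSO (46.7), so that its measured differences are uncertain, as is its distance. Nearest to DUSP1 were CD68, NAMPT, IL6, TBC1D2 and CT45A3, at distances of 0.06 to 0.18. NAMPT, an enzyme of NAD synthesis, had 1536 with GANT61, 711 with cyclopamine and 341 with DMSO, and IL6, a cytokine, had 253 with GANT61, 125 with cyclopamine and 54.1, not above background, with DMSO. The distance of IL6 is therefore not exact either. The likeness of CD68 to DUSP1 holds for its brightest probe, while a second probe had 1679 with GANT61, 132 with cyclopamine and 85.4 with DMSO, log2 differences from DMSO of 4.30 and 0.63. The likeness rests on 2 differences from 3 arrays, both taken from the same DMSO array.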

How the data were processed

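Transcript levels of HCC-LM3 cells were read on Illumina HumanHT-12 v4 arrays, 1 for each condition, and arrays were grouped by their labels. The deposited values are linear signal intensities of 47319 probes, which the authors had normalized between the arrays, since the sorted values of the 3 arrays differ by at most 0.886% at any rank. The sources used here name no software for this step. In addition, 6 columns of another deposited table carry headings that match no sample and were not used.

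Probes were named by the platform annotation. Of all probes, 17201 are unnamed here, 30110 have a single gene symbol and 8 carry several symbols, which were omitted. A gene is represented by its brightest probe, judged by the mean log2 intensity over the arrays. The most common intensity, found with a bin width of 1, was 42.5. Probes that exceeded 1.5 times this background on any array were kept. Where 1 array of a comparison was not above background, a lower bound computed with the limit is given for some named genes. Counts, medians, ranks, distances and plotted log2 differences use the measured intensities. With 1 array per condition no test was possible, and genes that differ 2-fold are counted instead. Precision is limited by the number of arrays. The SD between probes comes from pairs of probes that share a gene, by their median absolute deviation, in 5 brightness classes.

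The genes, lists and rule were chosen with earlier results of these data known. Named are the 10 genes with all probes, up to 4 genes of each other list that differ 2-fold in a comparison, EGFR, MAPK3 and the ETV genes, and the 5 genes nearest to DUSP6 and to the gene with the largest difference with GANT61. ERK target genes and marker lists come from general knowledge. Genes without a probe named here were not analysed here. The alternatives were normexp correction with an offset of 50 and quantile normalization, the mean of all probes, other filters on dim probes, scaling on reference genes or on all genes, background subtraction with an offset of 16, and 1.5-fold and 3-fold thresholds. Steps were tested on simulated arrays with large changes planted in bright genes. This did not test calls of dim genes or of differences near 2-fold. Normexp was run in limma 3.58.1 (R 4.3.3) and all other steps in Python 3.11.15 (numpy 2.4.6, pandas 2.3.3), with figures by matplotlib 3.10.9.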

Additional observations from a re-analysis of the deposited data

How the results depend on the processing

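The 4 genes that exceeded DMSO at least 2-fold with GANT61 were the same 4 under every alternative except the mean of all probes, which left out DUSP6, and the reference gene scaling and the 1.5-fold threshold, which added genes. With a 1.5-fold threshold 5 genes differed with cyclopamine from DMSO (2 higher and 3 lower) and 6 between the treated arrays, all higher with GANT61. Of all genes, 15.7% were then higher and 16.6% lower with cyclopamine than with DMSO, and 10.3% higher and 11.0% lower with GANT61 than with cyclopamine. With a 3-fold threshold these counts were 0 and 1, that gene being DUSP5, and 0.565% and 0.517% of all genes were higher. Background subtraction added SPRY4 to the genes lower with cyclopamine and gave a median of 0.94 for GANT61 against cyclopamine. The median for GANT61 against DMSO was 1.26 with both arrays above background and 1.26 with a limit of 2 times the most common intensity, where fewer dim genes were left. Scaled on the reference genes it was 1.45, and that for cyclopamine against DMSO was 0.48, turned from below 0. With both arrays above background the median for cyclopamine against DMSO also turned, to 0.11. Scaling on the reference genes raised the share of all genes at least 2-fold higher to 35.9% with GANT61 and 21.5% with cyclopamine. Then 2.09% and 1.69% were lower. Of 150 values of single genes under alternatives, 122 moved by less than the SD between probes, 28 by more, and 0 of those past 2-fold changed sign. This total pools unlike alternatives. The reference gene scaling moved 20 of 30 values by more, which are all those against DMSO. Background subtraction moved 4 of 30 and the mean of all probes 4 of 30, though the mean cannot change genes with a single probe. Normexp and the small shift of scaling on all genes moved none. Below 2-fold, the reference gene scaling turned SPRY1, SPRY4 and SPRED2 with GANT61 and DUSP4, DUSP10 and SPRED2 with cyclopamine to above DMSO. No paired analysis was possible because each condition has 1 array. The low intensities of DUSP4, DUSP10 and SPRY4 limit what can be shown of them and of the medians that fall on them.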

Other observations

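The atypical dual specificity phosphatases, which lack the kinase-binding domain of the MAP kinase phosphatases and of which several act on other substrates, were all above background. Of 9 such genes 2 exceeded DMSO at least 2-fold with GANT61 and 2 with cyclopamine, and none was lower by this rule. DUSP23 had an intensity of 600 with GANT61, 810 with cyclopamine and 255 with DMSO. DUSP11, a phosphatase that acts on RNA, had 886 with GANT61, 706 with cyclopamine and 441 with DMSO. The probes of DUSP22 disagreed, the brightest having 1147 with GANT61, 1684 with cyclopamine and 718 with DMSO and the second 243 with GANT61, 385 with cyclopamine and 284 with DMSO. None of the 9 genes differed 2-fold between the treated arrays.

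Of 8 Hh readout genes 3 were above background, and none differed 2-fold from DMSO with either compound. GLI2, a Gli transcription factor, had 74.0 with GANT61, 108 with cyclopamine and 127 with DMSO, and GLI3 had 78.1 with GANT61, 110 with cyclopamine and 109 with DMSO, while GLI1, PTCH1, HHIP, SMO and SUFU were not above background. BCL2, an inhibitor of apoptosis, had 129.6 with GANT61, 286 with cyclopamine and 195 with DMSO, the reverse of the order in DUSP1 between the treated arrays. FGF2, a growth factor whose signal passes through RAS and ERK, had 210.2 with GANT61, 130.4 with cyclopamine and 82.1 with DMSO. FGFR4, a receptor of that family, had 64.5 with GANT61, 51.3 with cyclopamine and 140 with DMSO, and was at least 2.19-fold lower with cyclopamine.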
